A study of Mus musculus with 6 samples.

Results

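The genes described here encode 9 enzymes that turn cholesterol into conjugated bile acids in the liver: Cyp7a1, Cyp8b1, Cyp27a1, Cyp7b1, Cyp39a1, Hsd3b7, Akr1d1, Slc27a5 and Baat. They were taken by name, and each was measured by the probe set (the group of array probes for a transcript) whose annotation holds that symbol alone. All 9 were found, with 1 probe set each, among the 19938 genes tested. Total RNA of frozen liver tissue was hybridised from C57BL/6 mice, an inbred laboratory strain, that had free access to a regular diet (RD) or a high fat diet (HFD) for 2 days. Each diet had 3 biological replicates with 1 array each, so 6 arrays were compared. The letters NI stand in all 6 titles without an explanation, and the labels used here give no diet composition, no age or sex of the mice and no hour of tissue collection. Expression is given as the deposited log2 value of a probe set, so a difference of 1 is a doubling. Values of different genes come from different probes and their levels were not ranked against each other.

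Bile acids are made in hepatocytes by 2 routes. The classic route opens with Cyp7a1, which hydroxylates the sterol ring in the endoplasmic reticulum and sets the rate of the pathway, and Cyp8b1 adds the hydroxyl group that makes cholic acid instead of chenodeoxycholic acid. The alternative route opens with side chain hydroxylation by the mitochondrial enzyme Cyp27a1, and Cyp7b1 hydroxylates the ring of the resulting oxysterols. Cyp39a1 hydroxylates the ring of oxysterols with another side chain. Both routes then share ring modification by Hsd3b7 and Akr1d1, side chain shortening in peroxisomes, and conjugation to taurine or glycine by Slc27a5 and Baat. Bile acids repress their own synthesis, in hepatocytes through the receptor FXR (gene Nr1h4) and the repressor SHP (gene Nr0b2), and from the intestine through a fibroblast growth factor that acts on the receptor Fgfr4 and its partner Klb.

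After 2 days of HFD, the signals of both enzymes of the classic route fell to a few percent of those in RD. Of the 3 enzymes of the alternative route, 0 passed limma's test (2 were lower at an unadjusted p under 0.05). Of the 9 genes, 3 were lower in HFD and 0 were higher (limma with Benjamini-Hochberg adjustment over all genes, adjusted p under 0.05). Among all genes tested, 2.24% were called lower and 3.11% higher. An unadjusted p under 0.05 was reached by 3926 of the 19938 genes in either direction, and every count at that level is read beside this share. The 3 genes were Cyp7a1, Cyp8b1 and the conjugation enzyme Slc27a5. The call of Slc27a5 was lost when most arrays were left out in turn, while its log2 difference stayed between -0.41 and -0.32. The HFD values lay below all RD values in 6 of the 9 genes, against 11.7% of all genes, and the median log2 difference of the 9 genes was -0.24 against 0.00 for all genes. The plot of log2 expression by array shows these values.

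**Figure D1:**
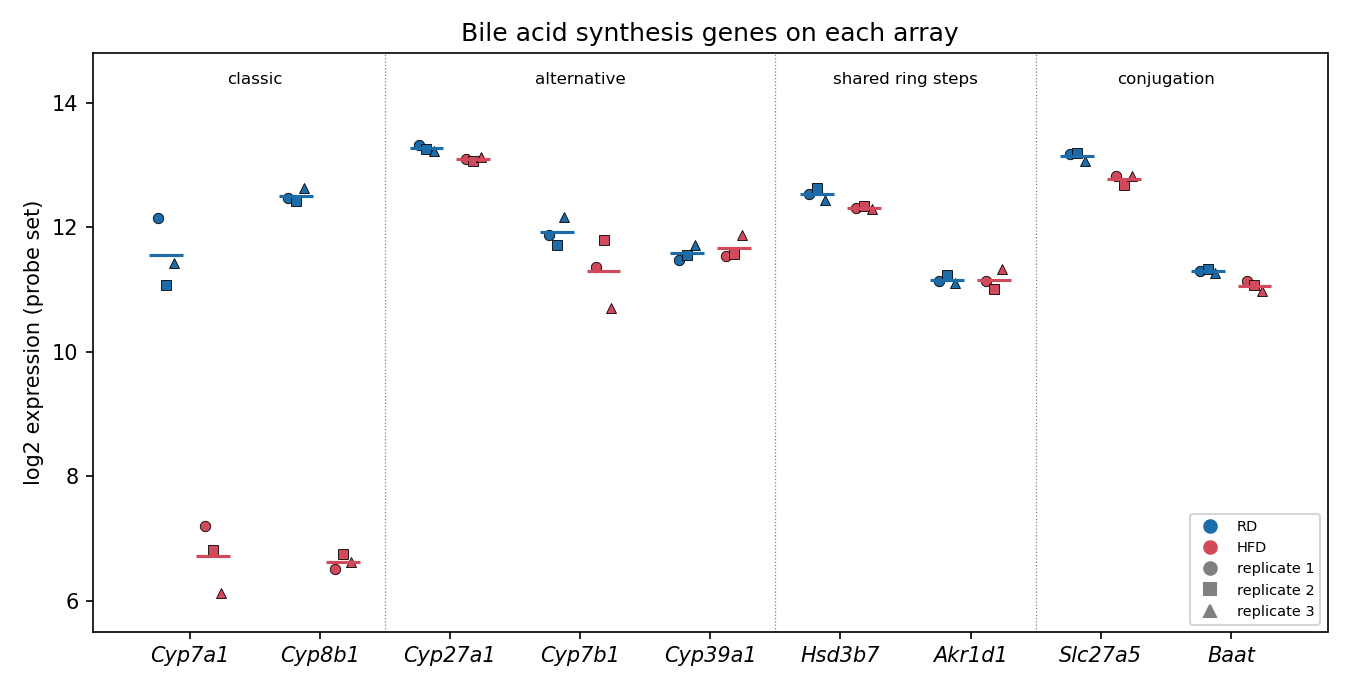
Log2 expression of the 9 genes on each of the 6 arrays, with RD in blue, HFD in red, the replicate number as the marker shape and the mean of 3 arrays as a bar. Cyp7a1 and Cyp8b1 lie between 11.08 and 12.63 in RD and between 6.12 and 7.20 in HFD, while the other 7 genes are at 10.71 or higher on every array.

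Cyp8b1 had the largest fall of all 19938 genes. Its log2 values were 12.47, 12.43 and 12.63 in RD replicates 1, 2 and 3 and 6.51, 6.75 and 6.63 in HFD replicates 1, 2 and 3. The arrays of a diet lay close together and the diets were separated by a gap of 5.68. With means of 12.51 ± 0.11 for RD and 6.63 ± 0.12 for HFD (SD, n = 3 each), HFD was lower by a log2 difference of -5.88 ± 0.09 (SE; 95% confidence interval -6.08 to -5.68; limma adjusted p = 2.0e-08). The HFD signal was thus 1.7% of the RD signal (95% confidence interval 1.48% to 1.95%), and all 16 alternative settings kept the call. Whether this HFD signal stands above background was not tested, so the share of transcript left could be lower.

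The Cyp8b1 promoter is shown because this gene changed most. The 250 bases before the RefSeq start, on the minus strand of chromosome 9 in mouse build GRCm38.p6 (chr9:121916306-121916555), are printed 5′ to 3′ with matches to the motifs searched in capitals.

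Cyp8b1: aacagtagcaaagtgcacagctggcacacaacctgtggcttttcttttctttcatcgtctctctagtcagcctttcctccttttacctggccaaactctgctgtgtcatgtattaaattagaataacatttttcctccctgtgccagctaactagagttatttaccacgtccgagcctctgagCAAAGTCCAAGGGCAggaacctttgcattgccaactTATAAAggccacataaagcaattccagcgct

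The longer capital run joins an HNF4-type core (CAAAGTCCA), 67 to 59 bases before the start, with an overlapping NR5A2-type site (CAAGGNCA) at 60 to 53 bases, and the shorter run is a TATA box (TATAAA) at 31 to 26 bases. Hnf4a and Nr5a2 (LRH-1) are nuclear receptors of hepatocytes known to drive bile acid synthesis genes, and SHP is known to bind and repress both. Of 32851 promoter windows of the same length, 0.384% held the HNF4-type core on either strand, 5.53% the NR5A2-type site and 12.4% the TATA box. An E-box (CACGTG) and a D-box (TTANGTAA), which circadian factors bind, occurred in 6.02% and 2.06% of windows and had no match in this one. Windows were at hand for 4 of the 9 genes (Cyp8b1, Cyp27a1, Hsd3b7 and Akr1d1), and the windows of the other 3 genes held no match to any of the 5 motifs. A match is a description of letters and not of a bound site.

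Cyp7a1, the enzyme that sets the rate of the classic route, had the second largest fall. Its log2 values were 12.15, 11.08 and 11.43 in RD replicates 1, 2 and 3 and 7.20, 6.82 and 6.12 in HFD replicates 1, 2 and 3. RD replicate 1 was the highest and HFD replicate 3 the lowest array, and the diets were separated by a gap of 3.88. HFD minus RD gave a log2 difference of -4.84 ± 0.31 (SE; 95% confidence interval -5.56 to -4.12; limma adjusted p = 2.3e-04). This left 3.49% of the RD signal, with a 95% confidence interval from 2.12% to 5.74%. The difference was -4.55 without HFD replicate 3 and -4.54 without RD replicate 1. Without limma's moderation of the variances, the adjusted p was 0.0558.

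The pair differed in how much it varied between animals of 1 diet. The pooled SD of Cyp7a1 within diets was 0.55, and 0.306% of all genes had a larger one. For Cyp8b1 it was 0.11, close to the median of 0.10 over all genes. The highest array exceeded the lowest by 2.11-fold in each diet for Cyp7a1 and by 1.15-fold in RD and 1.18-fold in HFD for Cyp8b1.

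Detection calls were not used here, so a remaining HFD signal of Cyp7a1 or Cyp8b1 cannot be told from background. As a guide chosen after the values were seen, the 1027 olfactory receptor genes on these arrays had mean log2 values with a median of 4.75, and their middle range, between percentiles 5 and 95, was 3.37 to 6.49. The HFD values of Cyp8b1 (6.51 to 6.75) lay just above this range, and those of Cyp7a1 (6.12 to 7.20) reached into it. The highest olfactory receptor gene had a mean of 9.05 and 6 were called by limma, so not all of them need be at background. Probe sets differ in their own background, so this is no detection call, and a signal at background would make both falls larger than measured.

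The enzymes of the alternative route moved far less. Cyp27a1, which opens it, had log2 values of 13.32, 13.25 and 13.23 in RD and 13.10, 13.07 and 13.13 in HFD. The HFD arrays lay below the RD arrays, by a gap of 0.10. The log2 difference of -0.16 ± 0.06 (SE; 95% confidence interval -0.31 to -0.02) did not pass (limma adjusted p = 0.204), and the interval reaches from 80.9% to 98.9% of the RD level. These values lie near the highest value of the table (14.86), where arrays can respond little to a change. A fall of Cyp27a1 could therefore be larger than measured. A fit with an intensity trend and a robust prior brought the adjusted p to 0.0486.

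Cyp7b1, the oxysterol hydroxylase that follows Cyp27a1, was the most variable of these 3 genes. Its values were 11.88, 11.72 and 12.17 in RD and 11.37, 11.79 and 10.71 in HFD. HFD replicate 3 was low, while HFD replicate 2 lay above RD replicate 2, so the diets overlapped. This gave a log2 difference of -0.63 ± 0.24 (SE; 95% confidence interval -1.19 to -0.08; limma adjusted p = 0.194). It was -0.34 without HFD replicate 3 and -0.89 without HFD replicate 2 (adjusted p = 0.064). The pooled SD within diets was 0.42, and 0.702% of all genes had a larger one. Cyp7b1 had its lowest value of the 6 arrays in HFD replicate 3, as did Cyp7a1, Hsd3b7 and Baat.

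Cyp39a1, which hydroxylates oxysterols of another side chain, had values of 11.48, 11.55 and 11.72 in RD and 11.54, 11.57 and 11.88 in HFD. The diets overlapped, and replicate 3 was the highest array of each diet. HFD minus RD was 0.08 ± 0.11 (SE; 95% confidence interval -0.17 to 0.32; limma adjusted p = 0.758), and -0.03 without HFD replicate 3. The interval reaches from 89.1% to 125% of the RD level.

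The plot of differences with their confidence intervals sets the remaining members beside the classic pair.

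**Figure D2:**
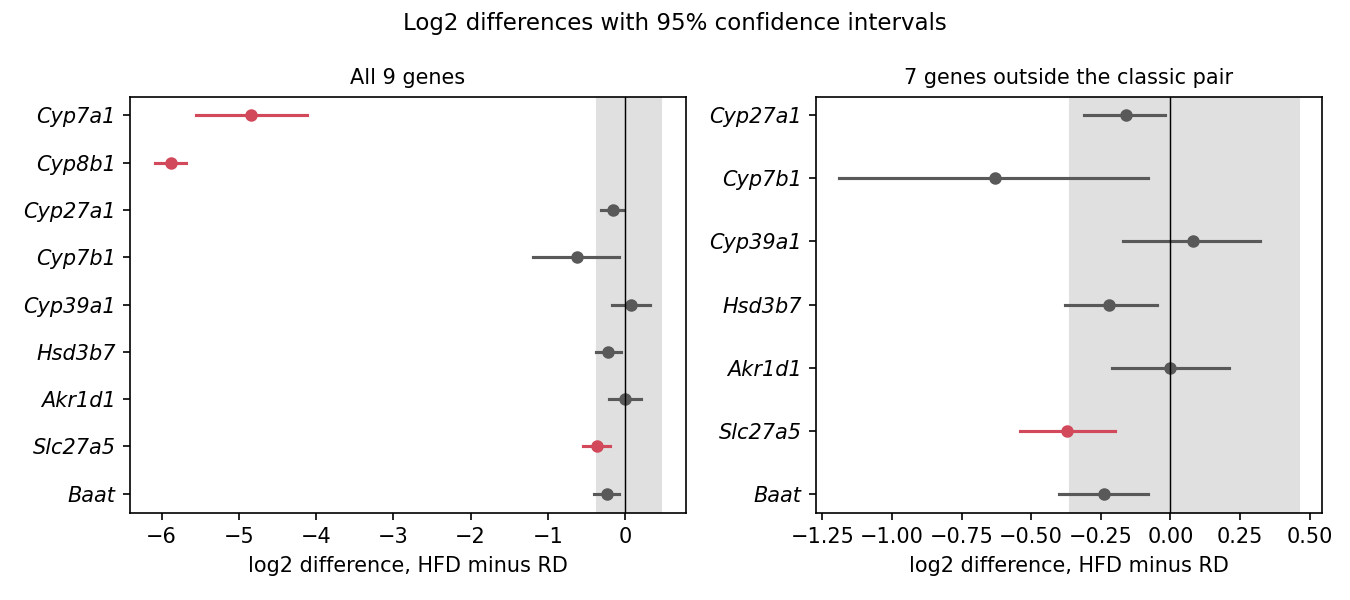
Log2 difference (HFD minus RD) of each gene as a point with its 95% confidence interval as a line, for all 9 genes (left) and for the 7 genes outside the classic pair on a wider scale (right). Red marks an adjusted p under 0.05, and the grey band holds the middle 95% of all 19938 genes, from -0.36 to 0.46. Only Cyp7a1, Cyp8b1, Cyp7b1 and Slc27a5 have points below the band.

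Neither ring modifying enzyme shared by both routes was called. Hsd3b7, the dehydrogenase that oxidises the ring hydroxyl group after hydroxylation by either route, had values of 12.53, 12.63 and 12.44 in RD and 12.31, 12.34 and 12.29 in HFD. All HFD arrays lay below all RD arrays, by a gap of 0.09. Hsd3b7 had a log2 difference of -0.22 ± 0.07 (SE; 95% confidence interval -0.38 to -0.05), with an adjusted p of 0.134 in limma and of 0.0437 with the intensity trend and robust prior.

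Akr1d1, the reductase that saturates the ring and gives bile acids their bent shape, had values of 11.13, 11.24 and 11.10 in RD and 11.13, 11.01 and 11.33 in HFD. HFD replicate 2 was the lowest and HFD replicate 3 the highest of the 6 arrays. The mean difference was 0.00 ± 0.09 (SE; 95% confidence interval -0.21 to 0.21; limma adjusted p = 0.999), so changes beyond 86.4% or 116% of the RD level lie outside the interval. Its sign turned under several settings, among them quantile normalization (-0.02).

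Both conjugation enzymes were lower on every HFD array than on any RD array, and Slc27a5 was called. Slc27a5, the bile acid CoA ligase of hepatocytes, had values of 13.17, 13.20 and 13.06 in RD and 12.83, 12.68 and 12.83 in HFD. The gap between the diets was 0.23. The log2 difference was -0.37 ± 0.07 (SE; 95% confidence interval -0.54 to -0.20; limma adjusted p = 0.0292), which is 77.5% of the RD level (95% confidence interval 68.8% to 87.2%). As with Cyp27a1, the values lie near the top of the table, so the fall could be larger than measured. The call held without RD replicate 3 (adjusted p = 0.0452) and was lost without RD replicate 1 (0.106), RD replicate 2 (0.104) or HFD replicate 1, 2 or 3 (adjusted p = 0.0621, 0.0872 and 0.0587). The log2 difference stayed between -0.41 and -0.32 in these fits. Calls over all genes also dropped without 1 array, from 621 higher and 446 lower to 197 to 371 and 178 to 273.

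Baat, which transfers taurine or glycine onto the activated bile acid, had values of 11.30, 11.33 and 11.26 in RD and 11.13, 11.07 and 10.97 in HFD. The diets were separated by a gap of 0.13. The log2 difference was -0.24 ± 0.07 (SE; 95% confidence interval -0.40 to -0.08; limma adjusted p = 0.0894). It passed when the brighter genes alone were tested (adjusted p = 0.0393) and with the intensity trend and robust prior (adjusted p = 0.0381).

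Whether 2 enzymes changed unequally was compared through the log2 ratio of their signals within each array, for 5 pairs, with exact two-sided permutation tests over the 6 arrays. Such an exact permutation test cannot go below p = 0.1 with 3 arrays against 3, and every adjusted p over the 5 pairs was 0.2. The ratio of Cyp7a1 to Cyp27a1, the opening enzymes of the 2 routes, had means of -1.71 ± 0.50 (RD) and -6.39 ± 0.57 (HFD; SD, n = 3 each), so it differed by -4.68 with no overlap between the diets (exact permutation p = 0.1). An unseen fall of Cyp27a1 near the top of the table would leave the true difference of this ratio smaller than measured. A Cyp7a1 signal at background in HFD would leave it larger. The ratio of Cyp7a1 to Cyp7b1 differed by -4.21, also with no overlap (exact permutation p = 0.1).

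Within the classic route, the ratio of Cyp8b1 to Cyp7a1 was 0.31, 1.35 and 1.21 in RD and -0.69, -0.07 and 0.51 in HFD. The difference was -1.04 (exact permutation p = 0.2), and HFD replicate 3 lay above RD replicate 1. Since neither HFD signal was tested against background, the HFD ratio may be one of backgrounds, and these values do not settle which of the pair fell more. The ratio of Cyp7b1 to Cyp39a1 differed by -0.71 and that of Baat to Slc27a5 by 0.13 (exact permutation p = 0.2 each), and both overlapped between the diets.

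**Figure D3:**
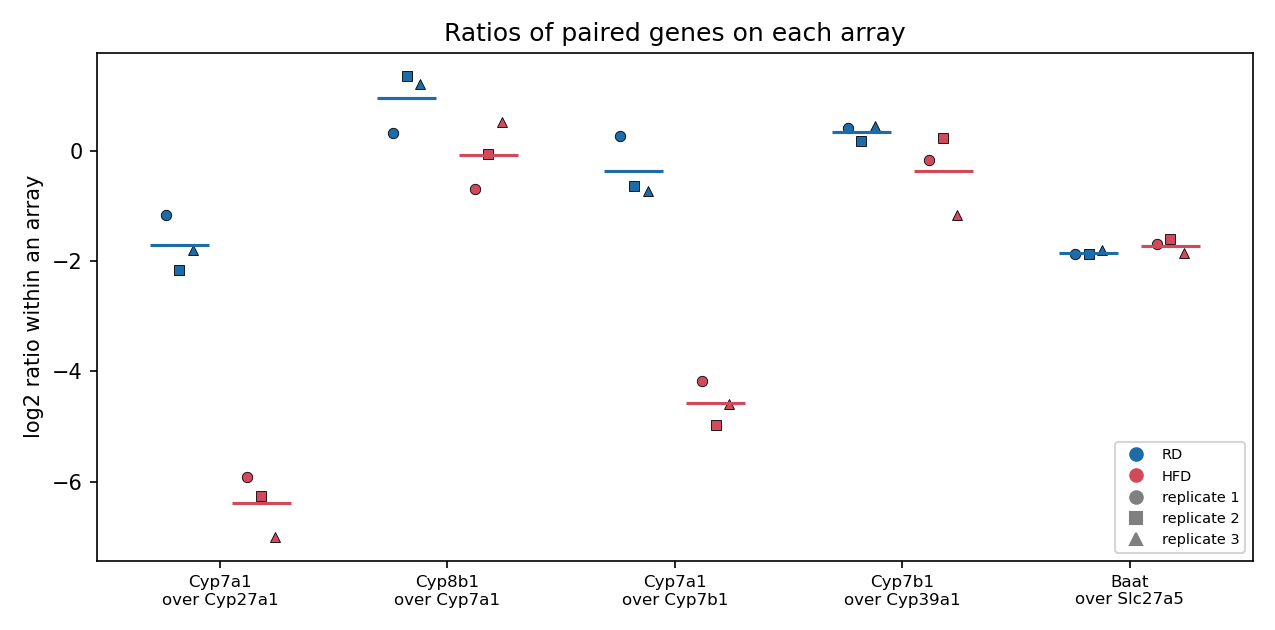
Log2 ratio of 2 genes within each array for the 5 pairs, with RD in blue, HFD in red, the replicate number as the marker shape and the mean of 3 arrays as a bar; the height of a ratio depends on the probes, and only its difference between diets is read. The 3 HFD arrays lie below the 3 RD arrays for Cyp7a1 over Cyp27a1 (-4.68) and Cyp7a1 over Cyp7b1 (-4.21) and overlap with them in the other 3 pairs.

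Genes around the 9 enzymes were read from 6 lists with 57 measured genes, of which 9 rose and 8 fell, with a median log2 difference of 0.00. In side chain shortening 1 of 7 genes fell and 0 rose by limma (2 were lower and 1 higher at an unadjusted p under 0.05), with a median of -0.15. It was Abcd3, the peroxisomal membrane transporter that takes up bile acid precursors, which went from 12.70 ± 0.03 to 12.16 ± 0.03 (SD, n = 3 each), a difference of -0.54 ± 0.06 (SE; limma adjusted p = 0.00266). Acox2, the oxidase of the branched bile acid side chain, had a difference of 0.21 ± 0.07 and the acyl-CoA synthetase Slc27a2 one of -0.20 ± 0.06 (adjusted p = 0.134 and 0.112). Scp2, the thiolase that completes the shortening, was at -0.16 ± 0.08. None of 5 other hydroxylases of sterols and bile acids passed in limma, with 1 at an unadjusted p under 0.05, Cyp3a11 (0.18 ± 0.06; adjusted p = 0.154). Cyp2c70, which makes the muricholic acids of rodents, had a difference of 0.11 ± 0.07. The cholesterol hydroxylase Ch25h had one of 0.14 ± 0.12 and the side chain cleaving Cyp11a1 one of -0.02 ± 0.07. Ch25h (5.44 in RD, 5.59 in HFD) and Cyp11a1 (5.40 and 5.39) lay within the middle range of the olfactory receptor genes, where a change could go unseen.

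In electron supply and sterol delivery 1 of 6 genes fell. Stard4, a carrier of cholesterol between membranes, went from 10.37 ± 0.15 to 9.25 ± 0.11 (SD, n = 3 each), a difference of -1.12 ± 0.09 (SE; limma adjusted p = 7.5e-04). Its relatives Stard3 (0.23 ± 0.06) and Stard5 (-0.13 ± 0.07) did not pass, nor did Fdx1 (-0.22 ± 0.11), the ferredoxin that serves mitochondrial P450 enzymes such as Cyp27a1. In the list of sulfation and other modification 2 of 9 genes fell and 1 rose. Akr1c20, an aldo-keto reductase, fell by 0.61 ± 0.06 on the log2 scale (SE; limma adjusted p = 0.00178), and Sult2a8, a bile acid sulfotransferase of mouse liver, fell by 0.39 ± 0.06 (adjusted p = 0.013). Leaving out RD replicate 1 or 2 ended the call of Sult2a8, with 0.0561 as the highest adjusted p. Hsd17b6, a steroid dehydrogenase, rose by 0.39 ± 0.08 (limma adjusted p = 0.0259). That call ended without replicate 1 or 2 of either diet, where the adjusted p reached 0.0977. Acnat2, an acyltransferase related to Baat, had a difference of 0.41 ± 0.18 (adjusted p = 0.256).

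Factors and signals that control the pathway gave 1 rise and 3 falls among 16 genes. Nr0b2, the repressor SHP, had values of 10.22, 10.69 and 10.50 in RD and 11.77, 11.51 and 11.53 in HFD, so all HFD arrays were higher. The difference was 1.13 ± 0.12 (SE; limma adjusted p = 0.00232). Nr1h4, the bile acid receptor FXR, had values of 10.97, 10.72 and 11.03 in RD and 10.17, 10.32 and 10.04 in HFD, a difference of -0.73 ± 0.10 (SE; limma adjusted p = 0.00777). Prox1, a corepressor of liver nuclear receptors, fell by 0.77 ± 0.13 (adjusted p = 0.017), a call that ended without RD replicate 2 or HFD replicate 3, where the adjusted p reached 0.0707, and the third fall was that of Dbp, described with the clock genes. The receptors whose motifs stand in the Cyp8b1 promoter, named after their values were seen, did not pass: Hnf4a was at 0.04 ± 0.06 and Nr5a2 at -0.12 ± 0.08. Neither did Fgfr4 (-0.23 ± 0.11) and Klb (0.18 ± 0.07), also named after their values were seen.

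Of 14 transporters of bile acids and bile lipids 7 rose and 1 fell, and between 5 and 6 rose when 1 array was left out. Slc51b (1.98 ± 0.08), Abcc4 (1.40 ± 0.14), Abcg5 (1.11 ± 0.06) and Abcg8 (1.09 ± 0.08) had the smallest p-values. Abcc4 is a basolateral exporter, Abcg5 and Abcg8 export sterols, and Slc51b is a subunit of a basolateral exporter. The partner subunit Slc51a, named after its values were seen, was not called (-0.10 ± 0.10; limma adjusted p = 0.645). Its means of 5.98 in RD and 5.87 in HFD lay within the middle range of the olfactory receptor genes. The gene that fell, Slc10a1, the main uptake carrier of conjugated bile acids, was singled out after seeing its values. It fell by 0.36 ± 0.06 (SE; limma adjusted p = 0.0187), and without HFD replicate 2 the list had 2 falls and without each of the other arrays 0.

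**Figure D4:**
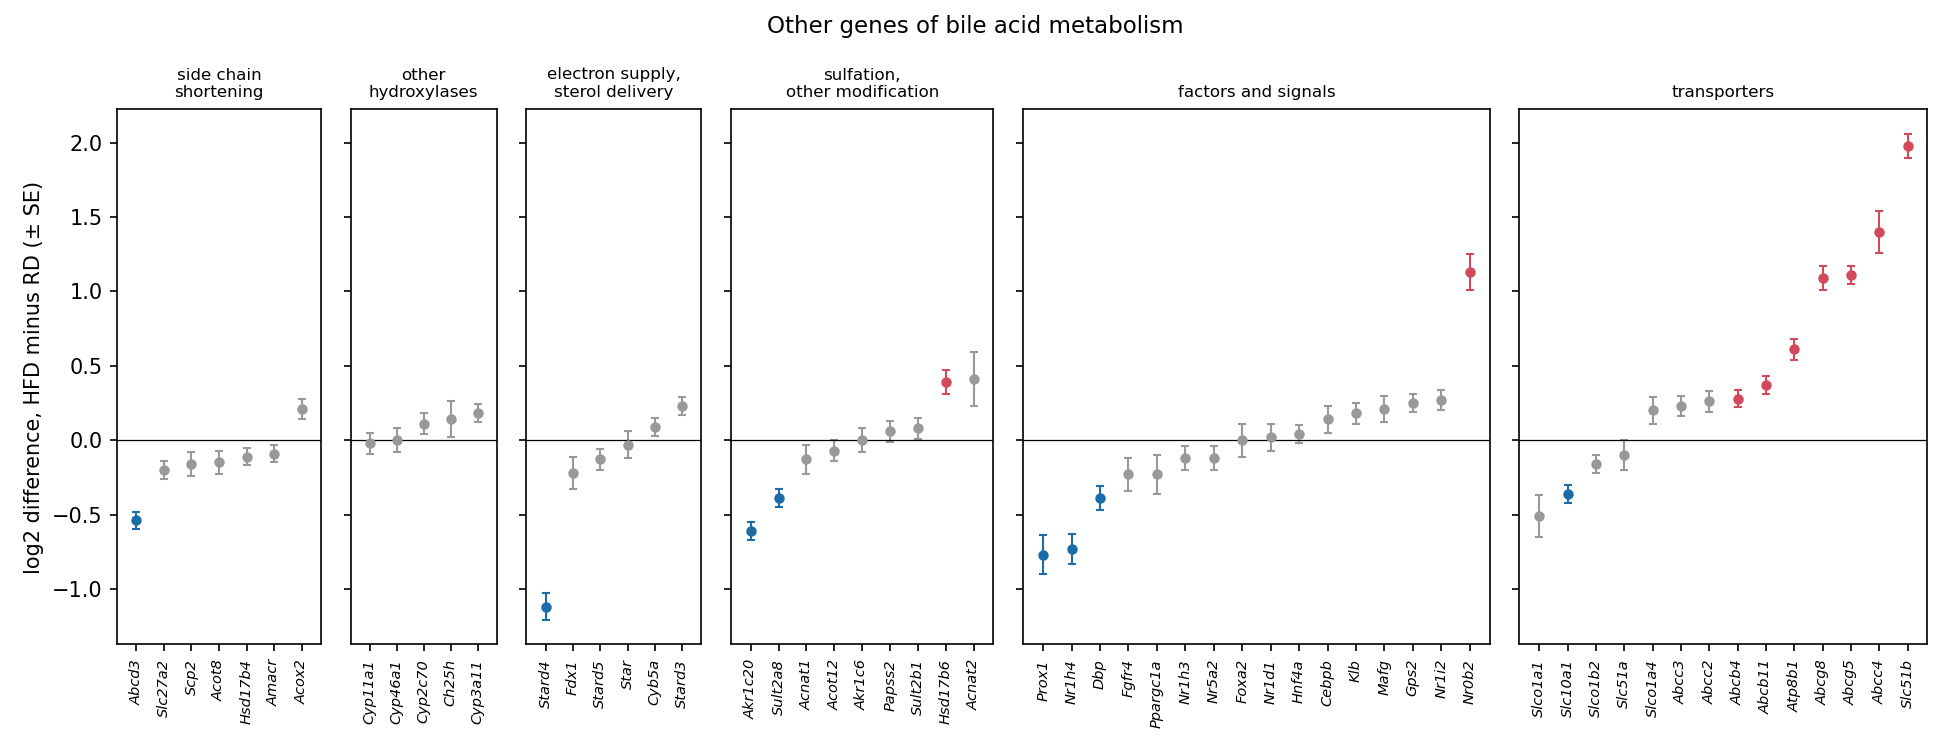
Log2 difference (HFD minus RD) of 57 other genes of bile acid metabolism, each with its SE as a bar and grouped by list; red marks a rise and blue a fall with an adjusted p under 0.05, and grey marks genes that did not pass. Slc51b (1.98) is the highest and Stard4 (-1.12) the lowest, and neither comes near the differences of Cyp7a1 and Cyp8b1.

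Cyp7a1 is known to follow the day, so the clock genes are given beside it. Of 16 measured, 3 fell and 0 rose by limma, with a median of -0.16. At an unadjusted p under 0.05, 8 were lower and 2 higher, against 3926 of all 19938 genes in either direction. In 8 all HFD values lay below all RD values, against 11.7% of all genes. The 3 called genes were Hlf (-0.58 ± 0.07; limma adjusted p = 0.00393), Dbp (-0.39 ± 0.08; adjusted p = 0.0322) and Per3 (-0.31 ± 0.07; adjusted p = 0.0397). Leaving out any single array ended the calls of Dbp and Per3, with adjusted p-values reaching 0.112 and 0.129. Dbp and Hlf are output factors of the clock that bind D-boxes. The core gene Arntl, named after its values were seen, was at 7.42 ± 0.00 in RD and 7.37 ± 0.18 in HFD (SD, n = 3 each), and Ciart, a clock repressor, had a difference of -0.87 ± 0.22 (adjusted p = 0.0614). The part of the clock genes in the fall of Cyp7a1 was not tested.

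Cyp7a1 and Cyp8b1 are hepatocyte genes, so the hepatocyte markers are given beside them. Of 9 measured, 0 were called by limma or reached an unadjusted p under 0.05. In 2 of the 9 all HFD values lay below all RD values, against 11.7% of all genes. In 1 they lay above, a direction whose share over all genes was not counted. The mean of the log2 values of these markers was 14.09 to 14.10 in RD and 14.07 to 14.10 in HFD. Their RD means, from 13.44 (Hnf4a) to 14.42 (Alb), lie near the highest value of the table (14.86), where arrays can respond little to a change, so a small shift in hepatocyte content could go unseen. In bulk tissue fewer cells of a type and less RNA per cell cannot be told apart. Among markers of hepatocytes around the central vein 3 of 10 were called lower, Tbx3 (-0.73 ± 0.13), Glul (-0.33 ± 0.07) and Oat (-0.33 ± 0.08). Leaving out RD replicates 1, 2 and 3 in turn gave 1, 0 and 2 calls, and HFD replicates 1, 2 and 3 gave 0, 1 and 2. At an unadjusted p under 0.05, 7 of the 10 were lower and 1 higher. All HFD values lay below all RD values in 6, against 11.7% of all genes, and above them in 1, with no share counted for that direction. Of 7 markers of periportal hepatocytes 0 passed in limma, with 2 at an unadjusted p under 0.05, Ctsc (0.38 ± 0.12) and Hsd17b13 (0.14 ± 0.06). The mean log2 level of the pericentral list was 11.77 to 11.81 in RD and 11.52 to 11.59 in HFD.

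Markers of other cells moved with the diet. Of 7 cholangiocyte markers 6 rose, among them Krt19 (0.70 ± 0.14) and Epcam (0.54 ± 0.10), with a mean log2 level of 7.82 to 7.89 in RD and 8.21 to 8.34 in HFD, but leaving out RD replicates 1, 2 and 3 in turn left 0, 1 and 1, and HFD replicates 1, 2 and 3 left 0, 2 and 1. Of 8 Kupffer cell markers 5 rose, with a mean of 9.68 to 9.74 in RD and 10.04 to 10.58 in HFD, and the same RD arrays left 1, 1 and 2 and the HFD arrays 4, 5 and 2. No marker of monocytes and neutrophils (7 measured), lymphocytes (7), endothelial cells (8), stellate cells and fibroblasts (8), erythroid cells (2), adipocytes (5) or pancreas and intestine (7) was called by limma. Of these 44, 3 had an unadjusted p under 0.05, against 3926 of all 19938 genes. The part of the marker shifts in the results above was not tested. Cyp7b1 is known to differ between the sexes, and the transcripts that mark sex overlapped between diets. Xist, which female cells express, was at 4.91 to 5.28 in RD and 5.04 to 5.28 in HFD, within the range of the olfactory receptor genes. Eif2s3y, a gene of the Y chromosome, was at 10.08 to 10.20 in RD and 9.86 to 10.14 in HFD. By these transcripts all 6 arrays were of male tissue, although the labels used here give no sex. Kdm5d (-0.10 ± 0.08) and Uty (-0.09 ± 0.09) did not pass either.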

How the data were processed

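The deposited table holds log2 values, 1 per probe set and array; the sources used here do not say how the authors summarised and normalized them, and base 2 was inferred from values of 2.28 to 14.86. Array medians were 7.06 to 7.11, and Pearson's r across genes, which are not independent replicates, was 0.996 to 0.997 within and 0.991 to 0.994 between diets. Arrays have no depth; the precision is limited by how many there are. Of 35512 rows, 21789 carried a single symbol in the platform annotation, which can be old; the probe set with the highest mean stood for each of 19938 genes, with no filter on dim ones. Diet was the sole term of the fit per gene with limma 3.58.1 (lmFit, eBayes; R 4.3.3), two-sided, adjusted over all genes (Benjamini-Hochberg). On simulated data with 200 of 19938 genes changed for HFD against RD, 62% of log2 changes of 0.5 and 98% of 1 were recovered. Deviations of arrays with the same replicate number correlated little over all genes (-0.11, 0.00 and 0.12). This cannot exclude a pairing that affects some genes.

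Members, lists, motifs and alternatives were chosen with earlier results of these data known. Beside the 9 members, the text names up to 4 genes of smallest p per pathway list, all genes called where a list has 6 or fewer, sex-linked transcripts, up to 2 markers per cell type and the 2 genes closest in pattern to each called member; others are said to be named after their values were seen. Listed genes without a probe set of a single symbol were not used here; Tf was read as Trf. Promoter sequences are RefSeq's (GRCm38.p6), and proteins were not used here. Alternatives changed the scaling (quantile, median), the genes tested (brighter ones, every row), the probe sets of a gene (their mean), the prior (trend and robust, or no moderation), weights of arrays, a block for the replicate number and the call (a fold of at least 1.5), and left out each array in turn.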

Additional observations from a re-analysis of the deposited data

How the results depend on the processing

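The call of Cyp8b1 held in all 16 alternatives (log2 difference -5.94 to -5.82) and that of Cyp7a1 in 15 (-5.08 to -4.54). Without moderation 1 member was lower and with the intensity trend and robust prior 6; between 2 and 3 were lower without 1 array. The call of Slc27a5 was lost in 9 alternatives (-0.41 to -0.32). Among them was the replicate block (adjusted p = 0.0768), which changed no other member's call and gave 318 higher and 245 lower genes. Whether the numbers pair the arrays is not known, so this loss stays a limit of the Slc27a5 call. All genes higher and lower numbered 621 and 446, and 168 and 173 with every row of the table, 41 and 58 without moderation, 208 and 151 with a fold of at least 1.5, and 197 to 371 and 178 to 273 without 1 array. Of the 57 other pathway genes, 14 rose among the brighter genes, 15 rose with the trend, 3 rose and 2 fell without moderation, 4 fell with every row and 4 with the fold; without 1 array 6 to 8 rose and 4 to 8 fell. Higher genes were 58.2% of the calls, 65.4% with median centring and 56.2% with quantile normalization, but the minority with every row (49.3%), without moderation (41.4%) and without RD replicate 1 (47.7%, 197 higher and 216 lower). Signs of uncalled genes turned: Akr1d1 was -0.02 with quantile normalization, -0.03 with array weights and -0.09 to 0.07 without 1 array, Cyp39a1 -0.03 to 0.15 without 1 array, and Cyp11a1 0.01 with quantile normalization, 0.00 with median centring and -0.06 to 0.02 without 1 array. The cause was not tested.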

Other observations

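Genes closest to the called members were found by the root mean square distance between the 6 values of 2 genes, each centred on its RD mean. This is a description over 6 arrays. For genes with large differences the distance depends mostly on their size. Cyp8b1 and Cyp7a1, with the largest and second largest fall, were each other's closest gene at 0.87, which adds nothing to those falls. The next for both was Sqle, the squalene epoxidase of cholesterol synthesis, at 1.5 from Cyp7a1 and 2.16 from Cyp8b1; its log2 expression was 10.23 in RD and 7.40 in HFD (-2.84 ± 0.13, SE; limma adjusted p = 4.8e-05). The closest to Slc27a5 were Iyd, the iodotyrosine deiodinase, at 0.03 (-0.37 ± 0.07; limma adjusted p = 0.0272) and the receptor gene Fgfr3 at 0.04 (-0.35 ± 0.09; limma adjusted p = 0.052).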
